A study of Mus musculus with 42 samples.

Results

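The translational efficiency of leukaemia cells, the number of ribosome footprints per mRNA, was compared between mice given chemotherapy and mice given vehicle, all fed a BCAA-free diet. BCAA are the amino acids with a branched side chain: valine, leucine and isoleucine. The cells were a transplanted mouse acute myeloid leukaemia driven by the MLL-AF9 fusion. They carried green fluorescent protein (GFP) under ubiquitin control and luciferase under a β-actin promoter, and living GFP+ cells were sorted from bone marrow when the response to chemotherapy was greatest. The recipients were male, 8 to 10 weeks old, genotype WT, and not preconditioned, so that they kept their own marrow. The injected cells descended from the leukaemia of 1 mouse and had been grown in culture. The first group, 5+3 on the BCAA-free diet, held 7 mice, and the second, vehicle (PBS) on the same diet, held 5. The 5+3 course was cytarabine at 100 mg/kg daily for 5 days with doxorubicin at 3 mg/kg daily for 3 of them. By the low-input method Ribo-lite, each mouse gave 1 footprint and 1 mRNA library, so that 24 of the 42 libraries of the series were used, those of 12 of 21 mice. The other libraries came from 4 mice given 5+3 and 5 given vehicle on the standard amino acid (AA) diet. The design text asks how the 2 diets change gene expression and translated mRNAs after chemotherapy.

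Ribosomes shield a short stretch of the mRNA they sit on from nuclease, and sequencing these stretches shows which mRNAs were being read. The mRNAs of ribosomal proteins and of many translation factors start with a C followed by pyrimidines, the 5′ terminal oligopyrimidine (TOP) motif. Their translation is known to follow mTORC1, a kinase complex that leucine and other amino acids activate through the Rag GTPases. Shortage of amino acids is also known to activate the kinase Gcn2, which phosphorylates the initiation factor eIF2, lowers initiation on most mRNAs and raises translation of Atf4, a transcription factor of amino acid synthesis and transport genes.

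The mRNA libraries held 38939392 to 70437713 gene counts and the footprint libraries 3387843 to 8863472. Although shallower, footprints varied less between mice of a group. The absolute difference of a gene from the median of the other mice of its group was taken on the log2 scale. Its median over genes was 0.15 to 0.22 in footprint libraries and 0.31 to 0.55 in mRNA libraries. The mRNA libraries of vehicle replicates 1, 2 and 5 and of 5+3 replicate 7 stood apart by the number of genes with a count. That number was 20195 to 22264, against 23872 to 33323 in the other 8 mice. By deviation, vehicle replicates 1 and 5 and 5+3 replicate 7 were highest (0.47, 0.55 and 0.51). Vehicle replicate 2 (0.34) lay below vehicle replicate 3 (0.38). Hoxa9, Meis1, Mpo, Kit and Ptprc, markers of this leukaemia and of blood cells, were present in all 24 libraries. Summed mRNA of 12 mature neutrophil markers was lower in 5+3 mice (382 to 2625 CPM, counts scaled to library size) than in vehicle mice (3627 to 4813 CPM), and that of 12 erythroid markers was 4.03 to 29.5 CPM in 5+3 mice and 81.8 to 139.7 CPM in vehicle mice. In their footprints the 2 sums were 126 to 1213 and 9.75 to 46.9 CPM in 5+3 mice, and 895 to 1443 and 121 to 220.2 CPM in vehicle mice. None of these markers was at 0 in every mRNA library of a group. Their part in the results was not tested, and fewer cells of a type and less RNA per cell cannot be told apart.

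Translational efficiency changed in 669 of 9101 protein-coding genes (7.35%), of which 152 rose and 517 fell in 5+3 mice relative to vehicle mice (edgeR quasi-likelihood test of the interaction of library kind with 5+3, with the mouse as a block, Benjamini-Hochberg adjusted p below 0.05). Among the genes that rose were 37 of the 80 cytosolic ribosomal proteins; the genes that fell included Rragc, Trp53 and Ccnb1. In both directions the difference was larger in mRNA than in footprints: this held for 144 of the 152 and 441 of the 517 genes. The same count over all genes is not given here, and mRNA libraries varied more between mice than footprint libraries. The larger difference in mRNA is therefore not shown to be particular to the genes called. The 152 that rose had a median log2 change of 1.17 in translational efficiency, of 0.16 in footprints and of -0.97 in mRNA. The 517 that fell had medians of -1.13, -0.17 and 0.94.

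**Figure D1:**
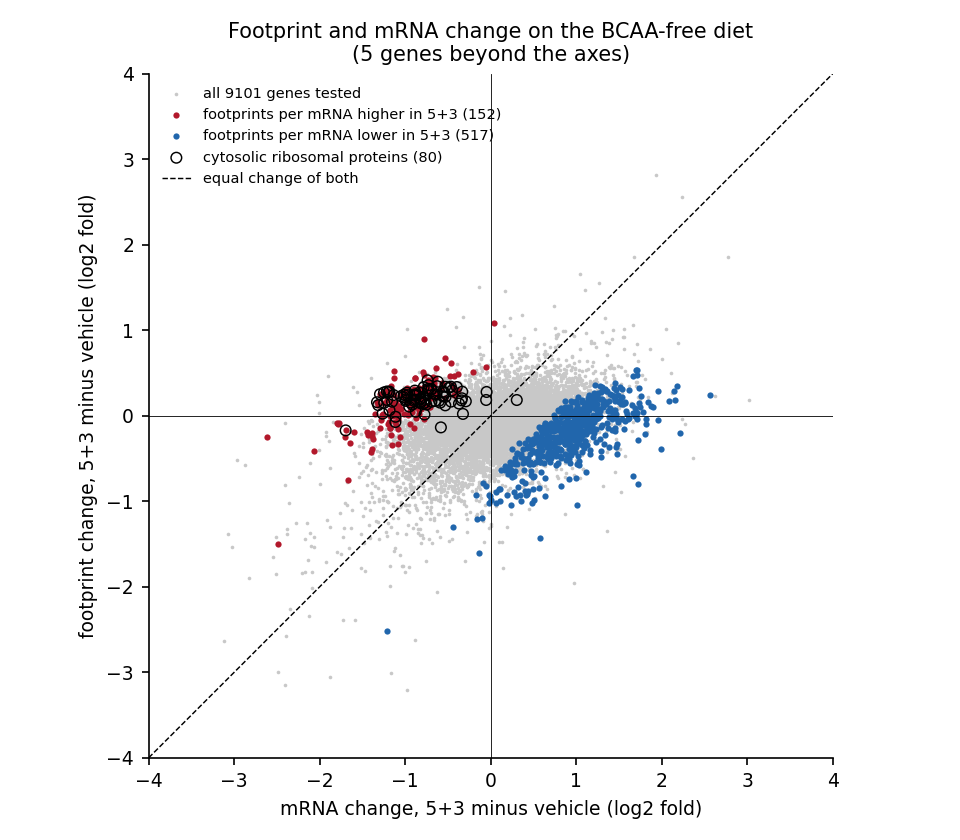
Change of mRNA (horizontal axis) and of footprints (vertical axis), both as log2 fold of 5+3 over vehicle, for each protein-coding gene tested; 5 genes lie beyond the axes. Red and blue points are the 152 genes whose translational efficiency rose and the 517 in which it fell, black circles are the 80 cytosolic ribosomal proteins, and the dashed line marks equal change of both; the coloured points spread mainly along the mRNA axis.

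Of the same 9101 genes, footprints changed in 2012 (22.1%), with 586 up and 1426 down, and mRNA in 1058 (11.6%), with 625 up and 433 down (edgeR). Among the 152 genes with higher translational efficiency, mRNA had fallen in 90, footprints had risen in 30 and footprints had fallen in 8. Among the 517 with lower translational efficiency, mRNA had risen in 299, footprints had fallen in 152 and footprints had risen in 17. These counts share libraries with the translational efficiency test and so describe where its change lay. Efficiency is relative within each kind of library, so a change common to all mRNAs cannot be seen. The median gene stood at -0.25, and at -0.08 when libraries were scaled over the tested genes alone. That scaling called 332 genes (3.65%), 160 up (1.76%) and 172 down (1.89%), in place of 152 and 517. Pseudogenes, which enter the first scaling only, took 24.7% to 29.5% of footprint counts in 5+3 mice and 21.7% to 26.7% in vehicle mice.

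Cytosolic ribosomal proteins, the protein part of the ribosome, had higher translational efficiency as a list. All 80 listed members were tested: 37 rose and none fell, where 1.67% of all genes tested rose. Their median log2 change was 1.07, against -0.25 over all genes, and 79 of 80 lay above 0. Rpl29 was the one below, at -0.18 (adjusted p = 0.731). Most of the shift was in mRNA, where 21 members fell (median log2 change -0.78), while 21 rose in footprints (median 0.20). Over all genes 4.76% fell in mRNA and 6.44% rose in footprints.

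The mice did not share this shift evenly. Ribosomal protein mRNAs took 3.66% of mRNA counts in the lowest, 4.32% in the median and 8.10% in the highest 5+3 mouse, and 10.1%, 12.1%, 8.27%, 6.42% and 8.29% in the 5 vehicle mice. The median log2 ratio of footprints to mRNA of these genes, relative to all genes, was 1.48, 0.95, 0.92 and 1.11 in 5+3 replicates 1, 2, 4 and 5. It was -0.32, -0.23 and -0.86 in 5+3 replicates 3, 6 and 7, and -1.59, -0.97, -0.68, -0.34 and -0.98 in the vehicle mice. So 4 of the 7 mice given 5+3 stood well above every vehicle mouse, 2 just above the highest one, and 1 within the vehicle range. The same 4 mice lay together at one end of the first principal component of the ratio, at 32.2 to 46.1. The other 3 mice given 5+3 lay at -4.92 to 8.03. Vehicle replicate 5 stood alone at the other end, at -129.9, and the other vehicle mice lay at -26.8 to 2.27. The component held 43.2% of the variance of the ratio, and vehicle replicate 5 weighs most in it.

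**Figure D2:**
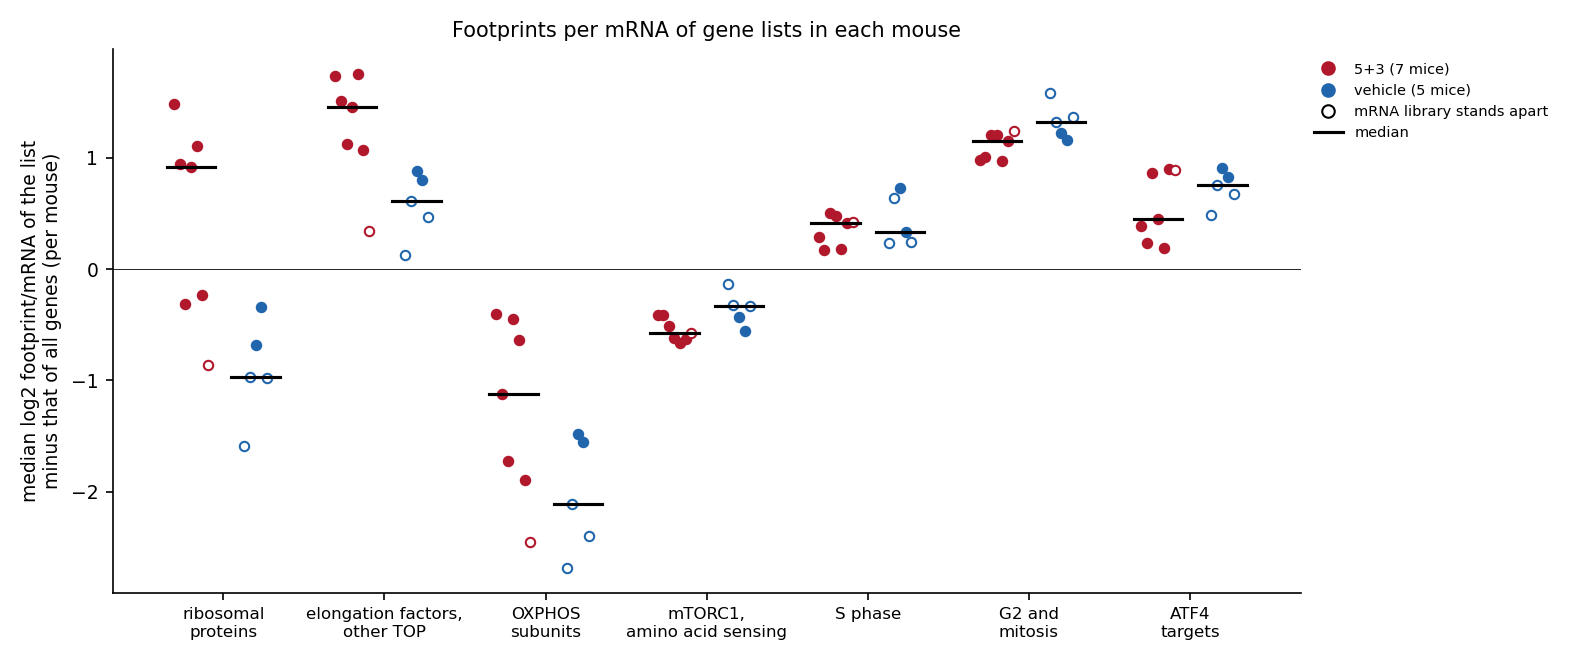
Median log2 ratio of footprints to mRNA of 7 gene lists in each mouse, minus the same over all genes tested; 5+3 mice are red, vehicle mice blue, open circles are the 4 mice whose mRNA libraries stand apart, and bars are medians. For ribosomal proteins 4 of the 7 mice given 5+3 lie at 0.92 to 1.48 and all others below 0.

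Rpl37a, a protein of the large subunit (ENSMUSG00000046330, chromosome 1, 72711260 to 72713813 in GRCm38), showed the pattern without overlap. Its mRNA was 371 CPM in the lowest, 643 in the median and 1045 in the highest 5+3 mouse, against 1846, 2278, 1655, 1101 and 1303 CPM in the vehicle mice. Its footprints were 205, 238 and 282 CPM in the lowest, median and highest 5+3 mouse, against 190.1, 248, 186, 183 and 175 CPM. Every 5+3 mouse had less Rpl37a mRNA than every vehicle mouse, while the footprint values overlapped. Translational efficiency rose by 1.60 ± 0.35 (log2, SE; edgeR adjusted p = 0.0259), with mRNA changed by -1.25 ± 0.31 (adjusted p = 0.0215) and footprints by 0.27 ± 0.10 (adjusted p = 0.0507). Rps3a1, of the small subunit, was also without overlap between the groups in its per-mouse ratio and rose by 1.30 ± 0.31 (adjusted p = 0.0294). Over all genes tested 2.96% had ratios that did not overlap, 0.472% with 5+3 higher and 2.48% with 5+3 lower. Besides Rpl37a, the members named for large increases were Rps12 (1.82 ± 0.51), Rps24 (1.63 ± 0.40), Rpl22 (1.60 ± 0.39) and Rpl13a (1.53 ± 0.36), with adjusted p between 0.0272 and 0.0414. Rps12 mRNA ranged from 151 to 1133 CPM over the 5+3 mice, around a median of 238 CPM, and from 592 to 2469 CPM over the vehicle mice, so that its groups overlapped.

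The RefSeq transcription starts of ribosomal protein genes were read for the TOP motif, taken as a C at the annotated start followed by at least 4 pyrimidines. Of 59 members with a start in the table, 15 had it (25.4%), against 205 of 7451 genes tested (2.75%) and 823 of all 32851 starts in the table (2.51%). Annotated starts can lie some bases from the true ones, so the share describes the annotation. Shown here, 5′ to 3′ from 12 bases before the annotated start, are the 5 ribosomal protein list members with the longest tracts, then the TOP gene Nap1l1, then Rpl37a and Rps12, which changed strongly but have no tract at the annotated base. Capitals mark the C and pyrimidines from the start on; sequences are from RefSeq, GRCm38.p6. They lie at chr19:6057935-6057964 (+ strand) for Fau, chr14:18270969-18270998 (- strand) for Rpl15, chr2:39005114-39005143 (- strand) for Rpl35 and chr17:27635227-27635256 (- strand) for Rps10. The others lie at chr11:48800348-48800377 (+ strand) for Rack1, chr10:111473215-111473244 (+ strand) for Nap1l1, chr1:72711248-72711277 (+ strand) for Rpl37a and chr10:23787192-23787221 (- strand) for Rps12. The motif was read on the transcript strand only.
Fau: gcgcccccacttCTTCCTCTTTCTTgactc
Rpl15: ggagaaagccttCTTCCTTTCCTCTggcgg
Rpl35: ccccgccctttcCTCTTTCTCTCgaaccag
Rps10: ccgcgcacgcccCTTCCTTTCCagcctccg
Rack1: aggccgctctttCTTTTTCTCCacagggtc
Nap1l1: gggctctcgggtCTTTTTTagcgccatctg
Rpl37a: cgctcgccggtctaaaaccgcgcatgcgca
Rps12: cgtcatgcggccaccgccggccttttcccc

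By tract, the 15 with a TOP start had a median log2 change in translational efficiency of 1.07 and the 44 with another start 1.04. Outside the ribosomal proteins the medians were -0.14 over 190 genes with a TOP start and -0.26 over 7202 without. Fau, which encodes the ribosomal protein eS30, rose by 1.07 ± 0.31 (log2, SE; edgeR adjusted p = 0.0448), Rpl35 by 1.23 ± 0.35 (adjusted p = 0.0432) and Rps10 by 1.20 ± 0.33 (adjusted p = 0.0403). Rack1, a scaffold protein of the small subunit, did not pass (0.77 ± 0.27, adjusted p = 0.0808), nor did Rpl15 (0.21 ± 0.28, adjusted p = 0.642), with a tract as long as that of Fau (13 bases). Ribosomal protein genes have many near-identical pseudogenes. In footprints 57.0% to 57.7% of the counts of the genes and 300 named copies together fell on the copies in 5+3 mice, and 56.6% to 57.6% in vehicle mice, against 0.463% to 0.675% and 0.519% to 0.596% of mRNA counts. Footprint levels of single members are therefore uncertain as to the copy, while the split was nearly the same in both groups. Ribosomal protein genes are also short: 67 of 80 span under 5 kb (5000 bases) of genome, and other genes of that span had a median of 0.07, against -0.20 to -0.35 in longer ones.

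Among elongation factors and other TOP mRNAs, of 19 tested and 20 listed, 3 rose and none fell in translational efficiency, where 1.67% of all genes rose. The median log2 change was 0.64. Footprints rose in 13 of the 19 (6.44% of all genes rose) and fell in none. Eef1b2, which recharges the elongation factor eEF1A, rose by 1.61 ± 0.37 (log2, SE; edgeR adjusted p = 0.0265). Tpt1, a small protein abundant in growing cells, rose by 1.36 ± 0.38 (adjusted p = 0.0403), and Nap1l1, a histone chaperone, by 0.85 ± 0.24 (adjusted p = 0.0428). Nap1l1 footprints were 297 CPM in the lowest, 323 in the median and 391 in the highest 5+3 mouse, against 236, 307, 277, 251 and 228 CPM in the vehicle mice. Its mRNA was 163, 221 and 313 CPM in the 5+3 mice and 324, 378, 327, 237 and 312 CPM in the vehicle mice. Both overlapped between groups. Nap1l1 footprints themselves rose (log2 change 0.36, adjusted p = 0.00717), and its mRNA did not pass (-0.45, adjusted p = 0.17). Eef2, the translocation factor of elongation, did not pass in translational efficiency (0.81 ± 0.26, adjusted p = 0.0643).

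Among 35 initiation factors, 2 rose and 1 fell, where 1.67% and 5.68% of all genes did. The median log2 change was -0.17, 0.003 when scaled over the tested genes and -0.31 without the 4 mice whose mRNA libraries stand apart. Eif4ebp2, a repressor of cap-dependent initiation that mTORC1 inactivates, rose by 1.03 ± 0.28 (SE; edgeR adjusted p = 0.0403). Eif5b, which joins the ribosomal subunits, rose by 0.89 ± 0.26 (adjusted p = 0.0462). Eif2s1, the subunit of eIF2 that Gcn2 phosphorylates, fell by 1.04 ± 0.28 (adjusted p = 0.0391). Eif2s1 footprints were 141 CPM in the lowest, 148 in the median and 198 in the highest 5+3 mouse, against 129, 109.8, 139, 134 and 129.7 CPM in the vehicle mice. Its mRNA was 107, 208 and 376 CPM in 5+3 mice, against 109, 50.8, 62.1, 145 and 111 CPM. The footprints did not overlap and the mRNA did. Eif2s1 rose in both (log2 changes 0.31, adjusted p = 0.0211, and 1.34, adjusted p = 0.0186).

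In the amino acid sensing pathway upstream of mTORC1, 5 of 27 tested members (32 listed) fell in translational efficiency and 1 rose, with a median log2 change of -0.40. Over all genes 5.68% fell. Rragc, one of the Rag GTPases that bring mTORC1 to the lysosome when amino acids are present (ENSMUSG00000028646, chromosome 4, 123917433 to 123936997), fell most of the named members. Rragc footprints were 15.6 CPM in the lowest, 19.1 in the median and 21.9 in the highest 5+3 mouse, against 21.9, 25.9, 24.8, 24.3 and 23.4 CPM in the vehicle mice. Its mRNA was 55.5, 117 and 166 CPM in the 5+3 mice, against 30.4, 35.6, 35.9, 55.5 and 38.8 CPM. In mRNA 6 of the 7 mice given 5+3 lay above every vehicle mouse and the other level with the highest one, and the per-mouse ratios did not overlap. Rragc translational efficiency fell by 1.68 ± 0.33 (log2, SE; edgeR adjusted p = 0.0245), its footprints fell (-0.37, adjusted p = 0.0175) and its mRNA rose (1.39, adjusted p = 0.0131). Seh1l, of the GATOR2 complex that relays amino acid signals, fell by 1.06 ± 0.24 (adjusted p = 0.0259), and Lamtor4, of the Ragulator complex that anchors the Rag GTPases, rose by 1.03 ± 0.28 (adjusted p = 0.0403).

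Genes that handle BCAA passed at about the share of all genes. Of 23 tested genes of BCAA breakdown (25 listed), 2 fell and none rose, where 5.68% of all genes fell, with a median log2 change of -0.35. They were Hibadh, an enzyme of valine breakdown (-0.98 ± 0.26, SE; edgeR adjusted p = 0.0391), and Bckdk, the kinase that inhibits the branched-chain ketoacid dehydrogenase (-0.93 ± 0.27, adjusted p = 0.0462). Among 15 tested amino acid transporters (19 listed), only Slc25a44 fell, and none rose; the list median was 0.03. Slc25a44 carries BCAA into mitochondria. Its footprints were low, at 1.86 CPM in the lowest, 2.76 in the median and 3.42 in the highest 5+3 mouse, against 3.78, 3.51, 3.75, 4.26 and 2.06 CPM in the vehicle mice. Its mRNA was 12.2, 21.7 and 25.4 CPM in 5+3 mice, against 8.58, 9.18, 10.7, 10.0 and 5.26 CPM. The mRNA values did not overlap and nor did the ratios, and Slc25a44 translational efficiency fell by 1.42 ± 0.37 (adjusted p = 0.0344).

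**Figure D3:**
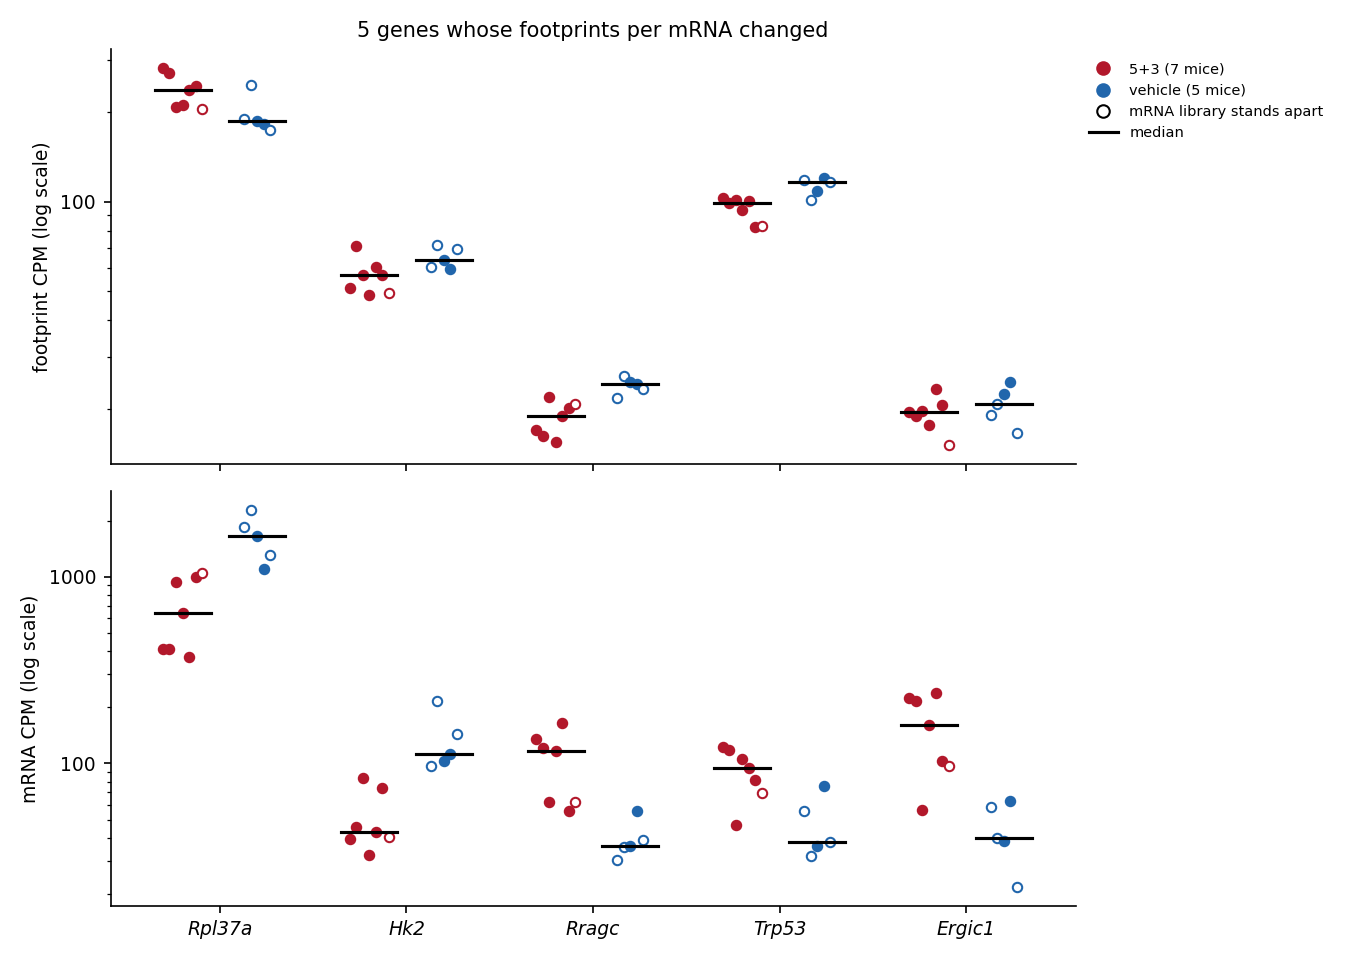
Footprint (top) and mRNA (bottom) CPM on log scales for 5 genes in each mouse; 5+3 mice are red and left, vehicle mice blue and right, open circles are the 4 mice whose mRNA libraries stand apart, and bars are medians. The groups are farther apart in mRNA than in footprints, as for Rpl37a, at 371 to 1045 CPM in 5+3 mice and 1101 to 2278 CPM in vehicle mice.

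Of 18 tested Atf4 target genes (28 listed), 11 rose and 1 fell in footprints, where 6.44% of all genes rose. In mRNA 9 rose and 1 fell (6.87% of all genes rose in mRNA). The median log2 changes in footprints and mRNA were 0.54 and 0.92. None passed in translational efficiency, where 7.35% of all genes did, and the list median was -0.40. Asns, asparagine synthetase, had footprints of 89.0 CPM in the lowest, 111 in the median and 190.3 in the highest 5+3 mouse, against 64.9, 69.8, 67.3, 70.4 and 50.2 CPM in the vehicle mice, with no overlap. Asns mRNA was 144, 202 and 469 CPM in 5+3 mice, against 134, 94.6, 53.4, 112 and 56.7 CPM, again with no overlap. Both rose (log2 changes 0.92, adjusted p = 0.007, and 1.55, adjusted p = 0.0131, edgeR), and the ratio did not pass (-0.65 ± 0.23, adjusted p = 0.0814). Atf4 itself had 10.9, 17.7 and 25.7 footprint CPM in the lowest, median and highest 5+3 mouse, against 14.3, 15.8, 13.0, 18.0 and 28.0 CPM. Its mRNA was 71.4, 107 and 144 CPM in 5+3 mice and 124, 215, 161, 175 and 175 CPM in vehicle mice. Atf4 mRNA fell (-0.65, adjusted p = 0.0443), its footprints did not pass, and nor did its translational efficiency (0.69 ± 0.26, adjusted p = 0.1005).

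Atf5, whose translation depends on upstream open reading frames as that of Atf4 does, also did not pass in translational efficiency (0.97 ± 0.32, SE; edgeR adjusted p = 0.0643). Ppp1r15a and Ddit3 had too few counts to be tested. Of 19 tested mRNAs with regulatory upstream open reading frames (24 listed), only Slc35a4, a sugar nucleotide transporter gene, fell (-1.23 ± 0.34, adjusted p = 0.0403). Over all genes tested 5.68% fell and 1.67% rose in translational efficiency. Of 23 tested aminoacyl-tRNA synthetases and their partners (24 listed), 10 rose in footprints and 9 in mRNA, where 6.44% and 6.87% of all genes did. In translational efficiency Wars, which charges the tRNA for tryptophan, fell (-1.37 ± 0.38, adjusted p = 0.0403; -0.91 without the 4 mice whose mRNA libraries stand apart) and Aimp1, a scaffold of the synthetase complex, rose (0.97 ± 0.25, adjusted p = 0.0328). Slc7a5, the plasma membrane transporter of leucine, rose in footprints (0.84, adjusted p = 0.00023) and mRNA (1.71, adjusted p = 0.0154) and did not pass in translational efficiency (-0.68 ± 0.36, adjusted p = 0.213).

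Mitochondrial respiration draws on nuclear and mitochondrial genes. Of 76 tested nuclear genes of oxidative phosphorylation (77 listed), 2 rose (1.67% of all genes rose) and none fell in translational efficiency, with a median log2 change of 0.52. Without the 4 mice whose mRNA libraries stand apart that median was 0.19, and 4 members in place of 30 had an unadjusted p below 0.05 for a higher value. Over all 9101 genes tested that count also fell, to 331 in place of 692. The 2 that rose with all mice in the fit were Atp5g2, a subunit of the ATP synthase rotor (0.79 ± 0.21, SE, edgeR adjusted p = 0.0391), and Uqcrh, of complex III (1.23 ± 0.35, adjusted p = 0.0428). Of 11 tested genes of the mitochondrial genome (13 listed), 2 fell (5.68% of all genes fell) and none rose in translational efficiency. The median was -0.44 (-0.67 without the 4 mice). In footprints 10 fell (15.7% of all genes fell). The catalytic subunit of complex IV, mt-Co1, had footprints of 311 CPM in the lowest, 355 in the median and 424 in the highest 5+3 mouse, against 615, 414, 463, 580.3 and 571 CPM in the vehicle mice. Its mRNA was 354, 616 and 1029.6 CPM in 5+3 mice, against 708, 299.9, 244, 458 and 389.9 CPM, a broad overlap. The efficiency of mt-Co1 fell by 1.07 ± 0.28 (adjusted p = 0.0355) and its footprints by 0.54 (adjusted p = 0.000869). Footprints of mitochondrial mRNAs come from mitochondrial ribosomes. For mt-Nd5, a subunit of complex I, efficiency fell by 1.22 ± 0.33 (adjusted p = 0.0391). Without the 4 mice the mt-Nd5 change was -0.73 (edgeR unadjusted p = 0.0912).

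Several cell cycle genes rose in mRNA and fell in translational efficiency. The shares over all genes were 6.87% up in mRNA, 6.44% up in footprints and 5.68% down in translational efficiency. Of 43 genes of S phase and DNA replication, 13 rose in mRNA and 15 in footprints, and 6 fell in translational efficiency with none rising (median log2 change -0.30). Of 43 genes of G2 and mitosis, 11 rose in mRNA and 5 in footprints, and 5 fell in translational efficiency with none rising (median -0.49). Ccnb1, the mitotic cyclin B1, had mRNA of 59.3 CPM in the lowest, 145 in the median and 238 in the highest 5+3 mouse, against 49.6, 35.2, 35.4, 58.4 and 46.3 CPM in the vehicle mice, with no overlap. Ccnb1 footprints were 90.7, 108 and 145 CPM in 5+3 mice, against 78.9, 74.4, 92.4, 75.9 and 87.5 CPM. Ccnb1 rose in both (log2 changes 1.66, adjusted p = 0.0107, and 0.46, adjusted p = 0.00261, edgeR), and its efficiency fell by 1.09 ± 0.29 (SE, adjusted p = 0.0391). Ccnb2 fell by 1.01 ± 0.25 (adjusted p = 0.0312) and Nuf2, of the kinetochore, by 0.87 ± 0.22 (adjusted p = 0.0313). In S phase Pold2, a subunit of DNA polymerase delta, fell by 1.04 ± 0.23 (adjusted p = 0.0259), Fen1, which trims Okazaki fragments, by 1.14 ± 0.27 (adjusted p = 0.0294), and Chaf1b, a histone chaperone of replication, by 1.20 ± 0.31 (adjusted p = 0.0335). Mki67, a proliferation marker, went the other way without passing (0.72 ± 0.22, adjusted p = 0.0545).

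Trp53, the p53 tumour suppressor that responds to DNA damage (ENSMUSG00000059552, chromosome 11, 69580348 to 69591873), fell in translational efficiency. Of 26 tested on the list of p53 and its targets it was the 1 that fell, and none rose, where 5.68% of all genes fell. The list median log2 change was -0.27, and -0.15 without the 4 mice. Trp53 footprints were 82.3 CPM in the lowest, 99.2 in the median and 103 in the highest 5+3 mouse, against 118, 101, 109, 120.0 and 116 CPM in the vehicle mice. Its mRNA was 47.0, 94.2 and 123 CPM in 5+3 mice, against 55.6, 31.9, 36.1, 75.9 and 37.7 CPM. Trp53 footprints fell (-0.25, adjusted p = 0.0282, edgeR) while its mRNA rose (0.95, adjusted p = 0.034), and its efficiency fell by 1.22 ± 0.26 (SE, adjusted p = 0.0252). The Trp53 ratio of 5+3 replicate 3 was higher than that of 2 vehicle mice. The p53 target Cdkn1a (p21) rose in footprints (1.47, adjusted p = 9.71e-05) and in mRNA (1.10, adjusted p = 0.0107) and did not pass in efficiency (0.32 ± 0.22, adjusted p = 0.343). Pim1, a survival kinase, rose in footprints by 2.82 (adjusted p = 0.00455) and in mRNA by 1.93 (adjusted p = 0.0154), with an efficiency change of 0.82 ± 0.33 that did not pass (adjusted p = 0.113).

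In glucose metabolism 4 of 26 genes fell in translational efficiency and 1 rose, where 5.68% and 1.67% of all genes did. The median log2 change was -0.43, against -0.25 over all genes. Hk2, hexokinase 2, which starts glycolysis, was the 1 that rose. Its mRNA was 32.4 CPM in the lowest, 43.1 in the median and 83.7 in the highest 5+3 mouse, against 96.5, 215, 104, 112 and 144 CPM in the vehicle mice, with no overlap. Hk2 footprints were 48.5, 56.6 and 71.2 CPM in 5+3 mice, against 60.6, 71.4, 63.9, 59.6 and 69.4 CPM, and overlapped. Hk2 efficiency rose by 1.19 ± 0.25 (SE; edgeR adjusted p = 0.0252). G6pdx, which opens the pentose phosphate pathway, fell by 1.52 ± 0.35 (adjusted p = 0.0276) and Pgam1, of lower glycolysis, by 1.39 ± 0.36 (adjusted p = 0.0328).

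Of 27 endoplasmic reticulum chaperones and stress genes, 3 fell and none rose (median log2 change -0.36), where 5.68% of all genes fell. They were Ero1l, which oxidises folding proteins (-1.45 ± 0.27, SE; edgeR adjusted p = 0.0221), Pdia4 and Edem1. In cholesterol synthesis 2 of 24 fell, near that share, with a median of -0.49. Msmo1, a sterol demethylase, fell by 1.20 ± 0.29 (adjusted p = 0.0298). Idi1, an isoprenoid enzyme, fell by 3.11 ± 0.78 (adjusted p = 0.0321), a value that depends on the prior count because vehicle replicate 5 had no Idi1 mRNA count; without the 4 mice whose mRNA libraries stand apart it was -1.61. Of 26 tested selenoproteins and antioxidant enzymes (27 listed), only Gclm fell and none rose (median 0.04, and -0.20 without those 4 mice). Gclm is the modifier subunit of the enzyme that starts glutathione synthesis. Its mRNA was 61.8 CPM in the lowest, 82.0 in the median and 187 in the highest 5+3 mouse, against 37.6, 34.3, 33.1, 47.1 and 49.9 CPM in the vehicle mice, with no overlap. Gclm footprints were 484, 537 and 589 CPM in 5+3 mice and 559, 487, 474, 542 and 490.1 CPM in vehicle mice, fully overlapping, and its efficiency fell by 1.22 ± 0.28 (adjusted p = 0.0261). Proteasome subunits had 3 of 32 lower (median -0.21) and heat shock proteins 2 of 21 tested (median -0.43), with none higher in either.

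Among myeloid genes, Mpo, the peroxidase of primary granules, rose in mRNA (log2 change 1.46, adjusted p = 0.0298) and did not pass in footprints (-0.18, adjusted p = 0.332). Mpo footprints were 3571 CPM in the lowest, 4319 in the median and 4600.3 in the highest 5+3 mouse, against 5591, 5393, 4852, 3619 and 3917 CPM in the vehicle mice. Its mRNA was 2204, 5185 and 12114 CPM in 5+3 mice, against 3127, 2577, 1857, 2314 and 1868 CPM. The 5+3 mice thus spread over a wider mRNA range than the vehicle mice. Mpo efficiency fell by 1.41 ± 0.41 (SE; edgeR adjusted p = 0.0465). Over all genes tested 5.68% fell and 1.67% rose in efficiency, while 15.7% fell in footprints and 4.76% in mRNA. Of 14 tested genes of neutrophil precursors (15 listed), 2 fell in efficiency, Mpo and Cebpe (-0.89 ± 0.25, adjusted p = 0.0432), a transcription factor of granulocytes. Of 21 tested monocyte and macrophage genes (23 listed), 11 fell in footprints and 6 in mRNA, and 2 fell in efficiency, among them Fn1, fibronectin (-1.43 ± 0.40, adjusted p = 0.0411). Of 19 tested genes of the MLL-AF9 programme and myeloid transcription factors (24 listed), only Jmjd1c, a chromatin protein, rose (0.98 ± 0.24, adjusted p = 0.031). Hoxa9 (-0.36 ± 0.22, adjusted p = 0.283) and Meis1 (0.09 ± 0.18, adjusted p = 0.781) did not pass.

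Most genes of antigen presentation fell in footprints. Of 21 genes of MHC class I presentation, 18 fell in footprints (15.7% of all genes fell), with a median log2 change of -0.99. In mRNA 9 fell (4.76% of all genes fell in mRNA) and 1 rose, with a median of -0.85. Only Tapbpl, a peptide editor, fell in translational efficiency (-1.16 ± 0.24, SE, edgeR adjusted p = 0.0252). Interferon-stimulated genes, 28 tested of 40 listed, had 16 lower in footprints, 6 lower in mRNA and none past the threshold in efficiency. Among 40 splicing factors 3 rose and 3 fell in efficiency, where 1.67% and 5.68% of all genes did. Son, a large nuclear speckle protein, rose by 1.30 ± 0.34 (adjusted p = 0.0362), and Srsf11 (-0.88 ± 0.19, adjusted p = 0.0259) and Hnrnpf (-1.18 ± 0.30, adjusted p = 0.0315) fell. Replication-dependent histones, 56 tested of 65 listed, had 1 member higher, Hist3h2a (1.43 ± 0.36, adjusted p = 0.0315). Most histone mRNAs lack a poly(A) tail, on which Smart-seq2 priming relies, and the copies are near-identical. Mitochondrial ribosomal proteins had 1 higher and 2 lower of 81, with a median of 0.15 that turned to -0.03 without the 4 mice whose mRNA libraries stand apart.

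The largest increase among the genes named was in Hba-a1, alpha globin, at 2.71 ± 0.59 (log2, SE; edgeR adjusted p = 0.0259), with Hbb-bs, beta globin, at 1.95 ± 0.52 (adjusted p = 0.0372). Both are red cell genes that fell in footprints (-3.14 each) and further in mRNA (-5.51 and -4.84), and red cells were lysed before sorting. Hba-a1 mRNA averaged 0.81 CPM in 5+3 mice and 36.6 CPM in vehicle mice, and Hbb-bs mRNA 1.25 and 35.5 CPM. Both globins thus met the mean of 10 CPM only through the vehicle mice. Their ratios in 5+3 mice rest on mRNA counts near the floor. Hba-a1 has a near-identical copy. Itpr2, a calcium release channel of the endoplasmic reticulum, rose by 1.69 ± 0.41 (adjusted p = 0.031). Its mRNA was 2.67 CPM in the lowest, 7.04 in the median and 12.3 in the highest 5+3 mouse, against 14.0, 12.7, 30.7, 20.2 and 38.4 CPM in the vehicle mice, with no overlap. Itpr2 mRNA averaged 6.73 CPM in 5+3 mice and 23.2 CPM in vehicle mice. Itpr2 too met the mean of 10 CPM in mRNA only through the vehicle mice.

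The 8 largest decreases that met the rule for named genes include genes of membrane traffic and cell division. Rab5a, the GTPase of early endosomes (ENSMUSG00000017831, chromosome 17, 53479234 to 53507678), had footprints of 13.1 CPM in the lowest, 20.1 in the median and 23.2 in the highest 5+3 mouse, against 18.4, 20.4, 21.4, 21.3 and 18.3 CPM in the vehicle mice. Its mRNA was 27.5, 44.5 and 72.6 CPM in 5+3 mice, against 18.8, 2.96, 9.95, 23.5 and 3.12 CPM. Its footprints did not pass (log2 change -0.05, adjusted p = 0.811). Rab5a mRNA was lowest in 2 of the vehicle mice whose libraries stand apart, and its efficiency fell by 2.39 ± 0.49 (SE; edgeR adjusted p = 0.0249). Pstpip2, a regulator of the cytoskeleton in myeloid cells, fell by 2.36 ± 0.40 (adjusted p = 0.0221). Pstpip2 mRNA averaged 28.8 CPM in 5+3 mice and 7.22 CPM in vehicle mice, so it met the mean of 10 CPM only through the 5+3 mice. Cdc16, of the anaphase-promoting complex, fell by 2.31 ± 0.50 (adjusted p = 0.0259), with 2.30 mRNA CPM in vehicle replicate 5 against 15.6 to 38.0 CPM in the other vehicle mice. Gosr2, a SNARE of the Golgi (-1.98 ± 0.44, adjusted p = 0.0259), Rad18, a ubiquitin ligase of DNA damage tolerance (-1.97 ± 0.45, adjusted p = 0.0259), and Asf1b, a histone chaperone (-1.83 ± 0.46, adjusted p = 0.0315), followed. Without the 4 mice whose mRNA libraries stand apart the change was -1.10 for Rad18 and -1.40 for Cdc16. Ergic1, which cycles between endoplasmic reticulum and Golgi, fell by 1.87 ± 0.33 (adjusted p = 0.0221). Ergic1 mRNA was 56.1, 160.0 and 237 CPM in the lowest, median and highest 5+3 mouse, against 58.1, 40.0, 38.6, 63.0 and 21.8 CPM. Gnpda1, of amino sugar metabolism, fell by 1.82 ± 0.53 (adjusted p = 0.0447).

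The number of genes past the threshold depended on single mice. Without any one of 5+3 replicates 1, 2, 4 and 5, or of vehicle replicate 2, no gene passed in edgeR, although 2016 to 2255 had an unadjusted p below 0.05, against 2645 (29.1%) with all mice. Without vehicle replicates 1, 3, 4 and 5 in turn 454, 58, 852 and 379 genes passed, and without 5+3 replicates 3, 6 and 7 in turn 1365, 649 and 1399. Without the 4 mice whose mRNA libraries stand apart no gene passed in edgeR or in limma, with an unadjusted p below 0.05 in 1634 and 1456 genes, while DESeq2 called 7 up and 36 down. Without the 3 such vehicle mice, which left 2 in that group, none passed either (1207 with an unadjusted p below 0.05). Sizes were kept for some groups and not for others. All 152 and 517 genes kept their direction without the 4 mice, with median log2 changes of 0.98 and -1.01 in place of 1.17 and -1.13, and the median of the ribosomal proteins was 0.86 in place of 1.07. Other list medians moved by more than 1.5 times or changed sign. Without the 4 mice the median was 0.19 in place of 0.52 for nuclear oxidative phosphorylation genes, -0.03 in place of 0.15 for mitochondrial ribosomal proteins, -0.67 in place of -0.44 for mitochondrially encoded genes and -0.20 in place of 0.04 for antioxidant enzymes. It was -0.31 in place of -0.17 for initiation factors, -0.15 in place of -0.27 for p53 targets, 0.73 in place of 0.05 for histones and -0.04 in place of 0.01 for MHC class I genes. It was 0.26 in place of 0.03 for amino acid transporters, 0.13 in place of 0.02 for mRNAs with upstream open reading frames and 0.08 in place of 0.02 for the MLL-AF9 programme. The remaining 8 mice are part of the 12, so the 2 results are not independent.

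**Figure D4:**
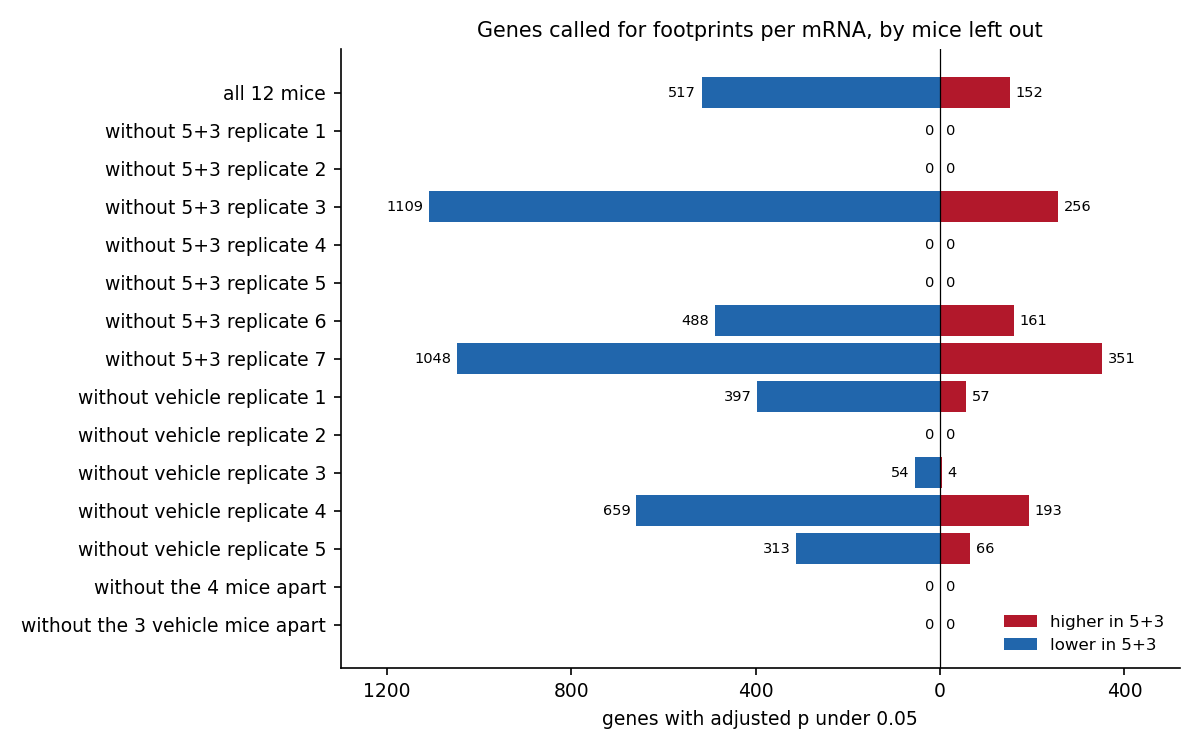
Number of genes with an adjusted p below 0.05 for translational efficiency, to the right those higher and to the left those lower in 5+3, with all 12 mice and with mice left out. The count is 0 without 5+3 replicate 1, 2, 4 or 5, without vehicle replicate 2, and without the 4 or the 3 vehicle mice whose mRNA libraries stand apart.

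On the AA diet the same comparison called nothing. One edgeR fit over all 42 libraries and 9622 genes gave 237 genes up (2.46%) and 1013 down (13.0% in all) for 5+3 against vehicle on the BCAA-free diet. In this fit no gene passed on the AA diet (0.0%, and 0 without the mouse block), where the groups held 4 and 5 mice. There 245 genes (2.55%) had an unadjusted p below 0.05. The library names of the AA vehicle mice alone carry a suffix B that the labels do not explain, and its part in the AA comparison was not tested. The difference between the diets was tested in the same fit: no gene passed (smallest adjusted p 0.219), and 273 genes (2.84%) were higher and 1034 (10.7%) lower on the BCAA-free diet at an unadjusted p below 0.05. The change on the BCAA-free diet is thus not shown to differ from that on the AA diet for any single gene at this threshold.

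For ribosomal proteins the median log2 change was 1.03 on the BCAA-free and -0.12 on the AA diet, and the median difference of BCAA-free minus AA was 1.15. Of the 80, 50 (2.84% over all genes) had an unadjusted p below 0.05 for a higher value on the BCAA-free diet and 0 passed after adjustment. Over all genes the medians were -0.29 and 0.004. Rpl37a changed by 1.57 ± 0.39 (SE) on the BCAA-free and by -0.36 ± 0.46 on the AA diet (difference 1.93 ± 0.60, edgeR adjusted p = 0.251). Genes of G2 and mitosis had medians of -0.53 and 0.20. Rragc changed by -1.71 ± 0.34 and -0.34 ± 0.39 (difference -1.37 ± 0.52, adjusted p = 0.299). Mitochondrially encoded genes had medians of -0.47 and -0.45. For Gclm the changes were -1.25 ± 0.27 and -0.91 ± 0.31 (difference -0.34 ± 0.41, adjusted p = 0.703). For Fn1 they were -1.46 ± 0.35 and -2.28 ± 0.41 (edgeR adjusted p = 0.0687 on the AA diet). The Fn1 difference was 0.82 ± 0.54 (edgeR adjusted p = 0.471).

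**Figure D5:**
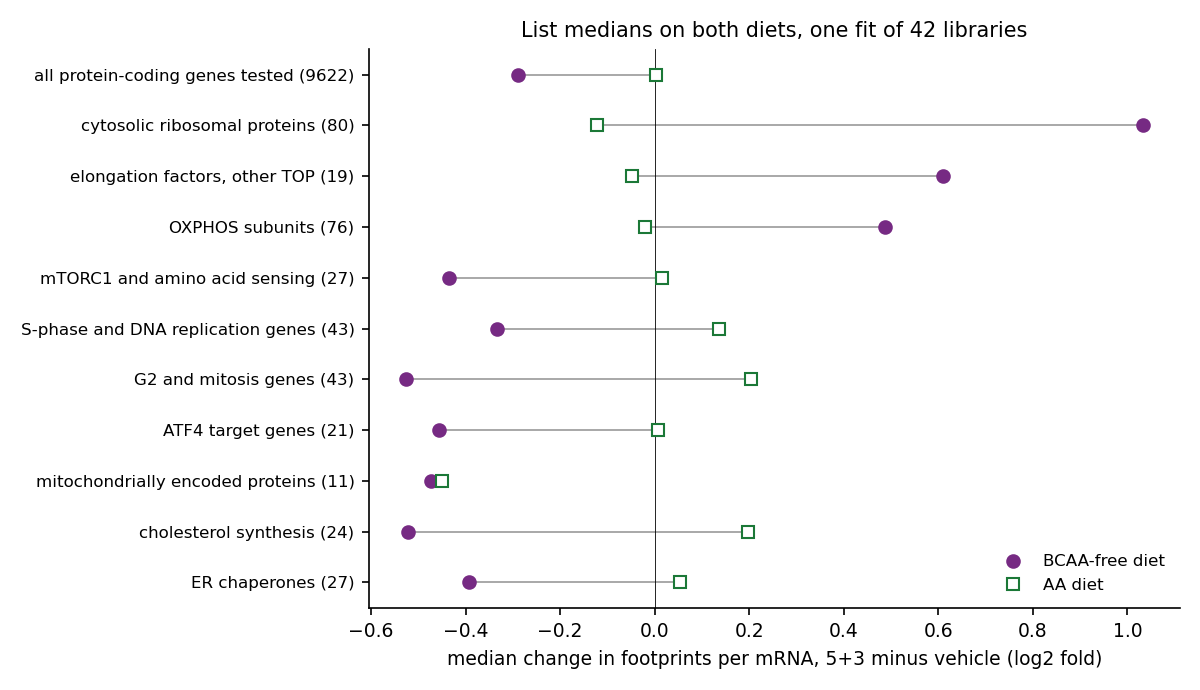
Median log2 change in translational efficiency of 5+3 over vehicle for gene lists on the BCAA-free diet (purple circles) and the AA diet (open green squares), from 1 fit of 42 libraries; the number of genes in each list is in parentheses. Ribosomal proteins stand at 1.03 and -0.12, while mitochondrially encoded proteins stand at -0.47 and -0.45.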

How the data were processed

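The authors deposited raw counts of reads per gene, whole numbers with no scaling, per the labels and the values. Tools named in the submitters' processing notes are cutadapt, Bowtie2, STAR, SAMtools and featureCounts, with the build GRCm38 (mm10). No version, annotation or strand setting was found in the sources used here, so reads of overlapping or antisense genes may be shared. Symbols were found for 55141 of 55487 identifiers, and 21400 matched protein-coding genes of RefSeq GRCm38.p6.

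Genes passing edgeR filterByExpr (minimum count 10, minimum total 15) in both kinds of library were tested. Libraries were scaled by TMM within each kind. The robust quasi-likelihood test of edgeR 4.0.16 (R 4.3.3) fitted mouse, library kind and its interaction with 5+3 over the 24 libraries. Footprints and mRNA alone were fitted without a block. The p-values are Benjamini-Hochberg adjusted over all genes tested. Each SE was derived from the test, as the absolute log2 change divided by the square root of its F statistic. CPM are scaled by TMM, and log2 ratios per mouse use a prior count of 2. Both libraries of a mouse come from 1 lysate, which is the pairing used: the deviations of 9 of 12 mice matched their own partner best (median r = 0.128). In both kinds, each of the 31 pairs of libraries within groups varied beyond counting error. Alternatives used limma 3.58.1 and DESeq2 1.42.0. The tests were first run on simulated data.

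The members and the gene lists were chosen with earlier results of these data known. Named genes are the 8 highest and 8 lowest changes among genes past the threshold with at least 10 CPM on average in both kinds and at least 75% of the 35 pairs of mice in the same direction, leaving out Gm-numbered, Rik, immunoglobulin and T cell receptor names. To these come up to 3 members of each pathway list with the smallest adjusted p and a panel of 15 genes named whatever their values. Rpl29, Fau, Rpl15, Rpl35, Rps10 and Rack1 fall outside this rule. Rpl29 was chosen after its values were seen, the others for their start sequences.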

Additional observations from a re-analysis of the deposited data

Results flagged for a closer look

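Among 208 groups of per-mouse values looked at, 8 held 1 mouse far from the rest, where chance alone gives about 1 in 20. In vehicle mice the log2 ratio of footprints to mRNA was -2.76 for Slc35a4 and -3.15 for Uqcrh in replicate 4, -3.29 for Bckdk and 3.58 for Hist3h2a in replicate 5, and -0.61 for Meis1 in replicate 1. In 5+3 mice the Trp53 ratio was 1.10 in replicate 3. Relative to all genes, the median ratio of cholesterol synthesis genes was 0.16 in vehicle replicate 1 and that of iron-responsive mRNAs 1.90 in vehicle replicate 5. No named gene passed the test of the difference between diets.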

How the results depend on the processing

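For translational efficiency 669 genes passed. Alternatives gave 1186 with no filter on low counts, 1221 with DESeq2, 1406 with all 42 libraries in the fit, 2549 with limma and weights per mouse, 263 with limma on the per-mouse ratio, 225 with limma and a prior count of 0.5, and 332 with scaling over the tested genes. Chosen after seeing the data were the scaling over the tested genes, the use of DESeq2 or limma without mice, leaving out mice 11, 12 and 25, and the number of detected mRNAs as a covariate, with which 429 genes passed. Without the 4 mice whose mRNA libraries stand apart 0 passed, 0 in limma and 43 in DESeq2. Without the 3 such vehicle mice 0 passed, and 0 without mice 11, 12 and 25 (vehicle replicates 1 and 2 and 5+3 replicate 7). Leaving out each mouse gave 0 to 1399. Median-ratio size factors, a minimum count of 50 and testing all genes kept the count within 1.5 times of 669.

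Footprint calls, 2012, were 156 without the 4 mice, 248 without the 3, and 1359 to 2280 leaving out each mouse. Scaling over the tested genes gave 1002 up and 965 down in place of 586 and 1426. The mRNA calls, 1058, were 1753 with DESeq2, 1817 with all 42 libraries, 12 without the 4 mice (410 in DESeq2) and 6 without the 3. Leaving out each mouse gave 177 (without vehicle replicate 2) to 1695 (without 5+3 replicate 7), and scaling over the tested genes 491 up and 520 down in place of 625 and 433. On the AA diet 15 genes passed with no filter, and 0 to 1 leaving out each mouse. For the difference between diets 89 passed with no filter, and 0 to 1 leaving out each mouse. The cause of these shifts was not tested.

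Without the replicate block for the mouse, 418 genes passed for translational efficiency. Mice with the same replicate number in both groups share only that number (r = -0.257 to 0.227 in mRNA, -0.096 to 0.150 in footprints). A replicate block on it gave 1500 genes for footprints and 1373 for mRNA.

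List medians moved with scaling over the tested genes to 0.20 for upstream open reading frames, 0.20 for amino acid transporters (0.26 without the 4 mice, which turned mitochondrial ribosomal proteins to -0.03 and antioxidant enzymes to -0.20 and lowered oxidative phosphorylation to 0.19), -0.23 for mTORC1 and amino acid sensing, -0.26 for heat shock proteins, -0.26 for glycolysis, 0.19 for MHC class I, -0.32 for G2 and mitosis, and 0.0848 for KRAB zinc finger and other nuclear mRNAs (-0.09 otherwise, 2 of 29 higher). Fth1, ferritin heavy chain, changed by 0.17 (adjusted p = 0.777) and turned negative without the 4 mice (-0.18, DESeq2 -0.18, limma -0.17), without the 3 vehicle mice (-0.25), with weights (-0.003) and without mice 11, 12 and 25 (-0.0735). Leaving out each mouse it ran over -0.21 to 0.44. Rpl15 turned to -0.0121 without the 3 vehicle mice and ran over -0.064 to 0.31 leaving out each mouse. Of 80 named genes, 64 had passed; all 64 lost the call without the 4 mice, and 24 did with scaling over the tested genes. Footprint depth, 3387843 to 8863472 counts, limits genes at a few CPM.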
